A study of Mus musculus with 6 samples.

Results

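Among the genomic intervals in which small RNA reads of Dnmt3l wild-type (WT) and knockout (KO) mouse germ cells were counted, a minority stand alone: they are at most 1000 bp long and share no base with any other interval of the count table. Such isolated short intervals on chromosomes 1 to 19 with at least 50 reads summed over the 6 libraries numbered 1286, of 1272486 distinct intervals in all. They were 3.51% of the 36623 isolated intervals of that length, most of which held few or no reads (14846 held any). Most other intervals overlap each other, so a read there is counted in several rows, whereas no other row covers any base of an isolated interval.

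Each library was made from RNA of 15 to 36 nucleotides purified on a gel from male germ cells of C57BL/6 testis, labelled as spermatogonia. At postnatal day 0 (P0) there was 1 library of WT and 1 of Dnmt3l knockout enriched germ cells, and at postnatal day 8 (P8) there were 2 libraries of each genotype from THY1+ cells enriched for spermatogonial stem cells. Age and cell preparation therefore cannot be told apart. The labels say neither how the knockout allele was made nor whether replicates came from separate animals, so a p-value here covers the spread between these libraries, and that spread may be technical. Rows carry coordinates and no gene names, so neither the loss of Dnmt3l nor the labelled cell type could be checked against a gene in these data.

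DNMT3L is a member of the DNA methyltransferase family without catalytic activity that assists the de novo methyltransferases, and male germ cells that lack it fail to methylate many transposons. PIWI-interacting RNAs (piRNAs) are germline small RNAs that guide PIWI proteins to transposon transcripts and, in fetal male germ cells, direct DNA methylation to transposons. They arise from transposon copies and from long single-stranded precursors, whereas microRNAs arise from short hairpins. The size range of these libraries takes in both kinds, and which kind of RNA each interval held was not analysed here.

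The isolated short intervals measured 114 to 1000 bp with a median of 315 bp (interquartile range 230.25 to 492.5 bp), and together covered 503.65 kb. Their reads summed to 346364. A typical member held few reads: the median was 98 over the 6 libraries, 638 members had at least 100, 53 had at least 1000, and the 5 members with most reads held 15.5% of the total. Length and reads were almost unrelated across members (Spearman rho 0.0277, n = 1286 intervals that share their libraries). At the limits of the rule, 25 members had exactly 50 reads and 22 isolated short intervals had 49. In length, 25 members were within 50 bp below the limit, and 26 isolated intervals within 50 bp above it passed the read limit. Just inside the length limit, chr4:129386324-129387323 (1000 bp, GRCm39) had 28 and 16 reads in WT P0 and KO P0, 2 in each WT P8 library, then 2 and 0 in KO P8. Just outside it, chr13:14215220-14216220 (1 bp too long) had 114 and 82 reads at P0 and 943 over the 6 libraries.

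When overlapping intervals were reduced to a set of 88221 that share no base, so that each read is counted once where possible, the 6 libraries held 4370237 to 6119690 reads. Of these, the isolated short intervals took 60414 in WT P0, 71528 in KO P0, 52575 and 50656 in those of WT P8, then 54988 and 56203 in the 2 of KO P8. As shares of each library's reads these were 0.987% in WT P0 and 1.64% in KO P0, 0.859% and 0.911% in WT P8, then 1.12% and 1.16% in KO P8. The KO libraries thus lay above the WT libraries of their age at both ages. At P8 the share was 1.14% ± 0.0289 (SD, n = 2) in KO and 0.885% ± 0.0365 (SD, n = 2) in WT, a ratio of 1.29, and a two-sided exact permutation test gave p = 0.333, the smallest p that 2 libraries against 2 can give. Without the member with most reads the shares were 0.836% and 1.28% at P0, 0.850% and 0.902% in WT P8, then 1.09% and 1.12% in KO P8. In bulk samples like these, fewer cells of a kind and less RNA per cell cannot be told apart.

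Levels are given below as CPM, the reads of an interval per 1000000 reads of its library in this set, with library sizes scaled by TMM (trimmed mean of M-values) over all 6. The median member stood at 2.14 CPM in WT P0 and 3.07 in KO P0, at 1.90 and 2.08 CPM in WT P8, then at 2.70 and 2.97 CPM in KO P8. Members without a read numbered 43 and 57 at P0, 178 and 211 in WT P8, then 90 and 98 in KO P8. The WT P8 libraries therefore held the largest number of empty members among the 6.

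**Figure D1:**
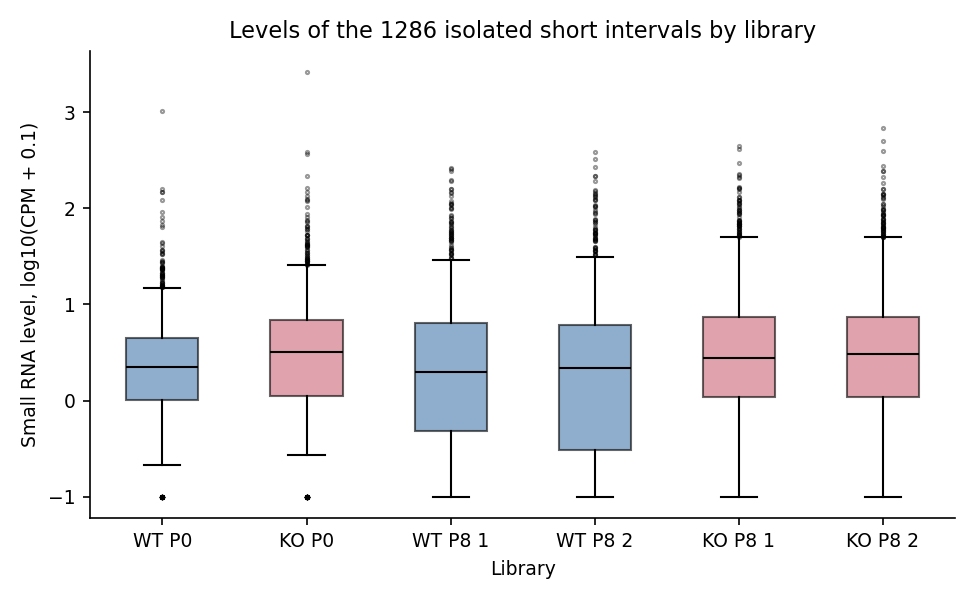
Levels of the 1286 isolated short intervals in each of the 6 libraries, as log10 of CPM plus 0.1. Boxes span the quartiles with the median as a line, and points are members beyond the whiskers. The lower quartile is lowest in the WT P8 libraries, and the medians run from 1.90 CPM in a WT P8 library to 3.07 CPM in KO P0.

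The 5 members with most reads differed in their patterns. The interval with most reads was chr18:42007701-42007909 (209 bp), with 9236 reads at P0 in WT and 15378 in KO, 569 and 496 in WT P8, then 1701 and 2050 in KO P8. Reads there were many at P0 and fewer at P8, and at both ages the KO libraries were above the WT libraries. Its level at P8 was 106 ± 3.59 CPM (SD, n = 2) in WT and 462 ± 62.8 in KO, a log2 fold change of 2.16 ± 0.11 (SE; edgeR quasi-likelihood test, Benjamini-Hochberg adjusted p = 1.63e-08). The second, chr4:100912069-100912365 (297 bp), had 1305 and 2158 reads at P0, 244 and 291 in WT P8, then 1803 and 2768 in KO P8. Its KO P8 reads stayed near the P0 number while its WT P8 reads lay far below, and the P8 log2 fold change was 3.43 ± 0.19 (adjusted p = 3.46e-08). The third, chr1:83888407-83889067 (661 bp), had 1399 and 2243 reads at P0, 413 and 342 in WT P8, then 598 and 566 in KO P8, and was higher in KO by 0.97 ± 0.11 on the log2 scale. At chr1:165695308-165695714 (407 bp) the order of the ages was opposite, with 123 and 74 reads at P0, 1350 and 1872 in WT P8, then 907 and 1124 in KO P8. Both KO P8 libraries were below both WT P8 libraries there, but the difference did not pass the test (log2 fold change -0.34 ± 0.16, adjusted p = 0.116).

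The fifth, chr11:69559771-69559913 (143 bp), differed more between replicates than between genotypes. It had 590 and 693 reads at P0, 121 and 1569 in WT P8 libraries 1 and 2, then 48 and 1579 in KO P8 libraries 1 and 2. Both libraries numbered 2 were high and both numbered 1 were low, and the genotypes did not differ by the test (log2 fold change 0.24 ± 1.05, adjusted p = 0.878). A smaller split of the same kind, found after the values were seen, was at chr1:131859247-131859430, with 259 and 630 reads in WT P8, then 57 and 154 in KO P8, where the genotypes did differ by the test (log2 fold change -1.76, adjusted p = 0.00529). Whether libraries that share a number share a preparation is not said by the labels.

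At P8 the isolated short intervals were higher in KO more often than lower. Of the 1286 members, 792 passed the read filter of the test. Among them 254 (32.1%) were higher and 150 (18.9%) lower in KO (adjusted p under 0.05). Over all 23197 intervals tested, 22.5% were higher and 20.1% lower, so the share of higher members was above the background and the share of lower members was near it. The 494 members not tested had at most 48 reads over the 4 P8 libraries, with a median of 9. The median log2 fold change was 0.04 over the tested members and -0.01 over all tested intervals, so the excess lay in the called members and not in a shift of the typical one. Changes upward were the larger ones: the median log2 fold change was 3.03 (8.17-fold) among the members called higher and -1.41 (2.65-fold lower) among those called lower, with 8 and 3 members whose low group had 0 reads counted at a bound of 3 reads. At least 2-fold changes numbered 225 upward and 118 downward. DESeq2 called 83 members lower, against the 150 of edgeR, and 200 higher. Among the 241 members with a mean of at least 10 CPM at P8, a limit added after the data were examined, 94 were higher and 71 lower. Shares over all intervals are not given for the 2-fold, DESeq2 and 10 CPM counts. Those counts therefore cannot be set against the background above.

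**Figure D2:**
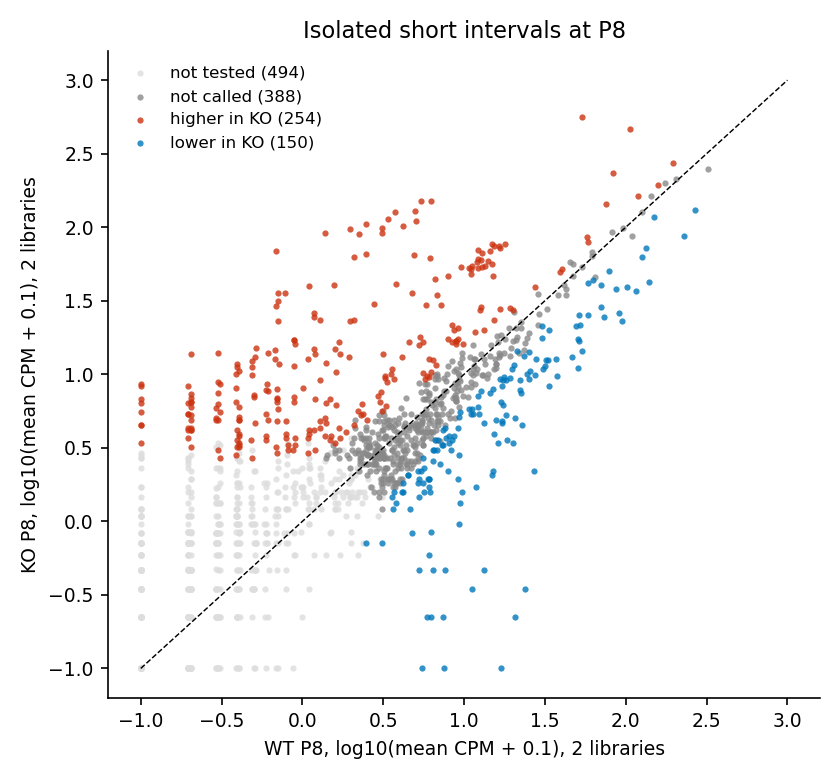
Mean level of each isolated short interval in the 2 KO P8 libraries against the 2 WT P8 libraries, both as log10 of mean CPM plus 0.1. Red points are the 254 members called higher and blue points the 150 called lower in KO, dark grey points the 388 tested and not called, light grey points the 494 not tested, and the dashed line marks equal levels. Red points lie farther from the line than most blue points.

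Counted without a test, both KO P8 libraries lay above both WT P8 libraries at 541 members (42.1%) and below both at 311 (24.2%). Over all intervals of the non-overlapping set with at least 50 reads these shares were 33.2% and 32.6%. When the P0 pair was required to differ the same way, all 3 KO libraries were above the WT libraries of their age at 432 members (33.6%, against 19% of all such intervals) and below at 156 (12.1%, against 20.4%).

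The largest changes at P8 are given among members with a mean of at least 10 CPM over the 4 P8 libraries. Without that limit, log2 fold changes of called members reached 8.29 upward and -9.24 downward. Within the limit, the members with the largest upward changes were nearly silent in WT P8. At chr15:29984069-29984850 (782 bp) there were 76 and 160 reads in WT P0 and KO P0, 4 and 2 in WT P8, then 303 and 255 in KO P8. The KO level at P8 was 115-fold the WT level, with a counting interval of 52.6 to 315. This member was present at P0 in both genotypes and was high at P8 in KO and not in WT, with a log2 fold change of 6.81 ± 0.26 (adjusted p = 1.16e-09). Another, chr12:67882204-67883157 (954 bp), had the same form, with 40 and 100 reads at P0, 2 and 4 in WT P8, then 148 and 140 in KO P8 (59.5-fold).

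Other members of this group had few reads at P0 in either genotype. At chr2:17756439-17756669 (231 bp) there were 13 and 9 reads at P0, 9 and 4 in WT P8, then 394 and 346 in KO P8, which is 70.5-fold (interval 41.0 to 133). At chr17:69848104-69848306 (203 bp) there were 31 and 53 reads at P0, 11 and 8 in WT P8, then 405 and 388 in KO P8 (51.7-fold). At chr13:116026619-116026852 (234 bp) the reads were 39 and 44 at P0, 16 and 8 in WT P8, then 453 and 394 in KO P8. These 3 were on different chromosomes and had similar levels in KO P8, between 91.2 ± 7.97 and 104 ± 9.83 CPM (SD, n = 2), against 1.27 to 2.36 CPM in WT P8. The interval chr7:51069789-51069996 (208 bp) was much alike, with 8 and 13 reads at P0, 7 and 14 in WT P8, then 374 and 355 in KO P8. The remaining 4 of the 10 highest, chr1:76753019-76753221, chr5:57849706-57849918, chr1:104221556-104222054 and chr1:23344437-23344580, had 2 to 5 reads in each WT P8 library and 102 to 193 in each KO P8 library. In all 10 members both KO P8 libraries stood far above both WT P8 libraries, and 7 of the 10 were 144 to 234 bp long.

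The largest downward changes at P8 were at members with WT reads at P8 and almost none at P0. At chr2:92375143-92375390 (248 bp) there were 0 reads in both P0 libraries, 115 and 92 in WT P8, then 1 and 0 in KO P8, a level 167-fold lower in KO with an interval of 29.7 to 6629 that a single read sets. Its neighbour chr2:92375693-92376044 (352 bp) had 1 and 2 reads at P0, 117 and 120 in WT P8, then 0 and 2 in KO P8 (95.6-fold lower). Both were all but absent from KO P8, with log2 fold changes of -7.07 ± 0.49 and -6.40 ± 0.45. At chr17:66514999-66515579 (581 bp) there were 4 and 9 reads at P0, 123 and 146 in WT P8, then 8 and 9 in KO P8 (12.8-fold lower).

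The other 7 of the 10 lowest were lowered by less and kept reads in KO. Their folds ran from 5.95 at chr1:131861547-131861718 down to 4.06 at chr17:36169295-36169601 and chr4:152255831-152256057. The member chr1:131861547-131861718 had 0 reads at P0, 94 and 105 in WT P8, then 18 and 9 in KO P8. It lies 2116 bp from chr1:131859247-131859430, the smaller of the members that split by replicate number. At chr17:36169295-36169601 there were 37 and 17 reads at P0, 421 and 521 in WT P8, then 80 and 107 in KO P8, and its neighbour chr17:36169897-36170086 had 5 and 3, 283 and 228, and 46 and 43. An exception to the low P0 levels was chr13:35068504-35068692, with 37 and 31 reads at P0, 101 and 84 in WT P8, then 11 and 17 in KO P8. The remaining 3, chr4:119263362-119263810, chr6:83343639-83343903 and chr4:152255831-152256057, had 85 to 175 reads in each WT P8 library and 17 to 36 in each KO P8 library.

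**Figure D3:**
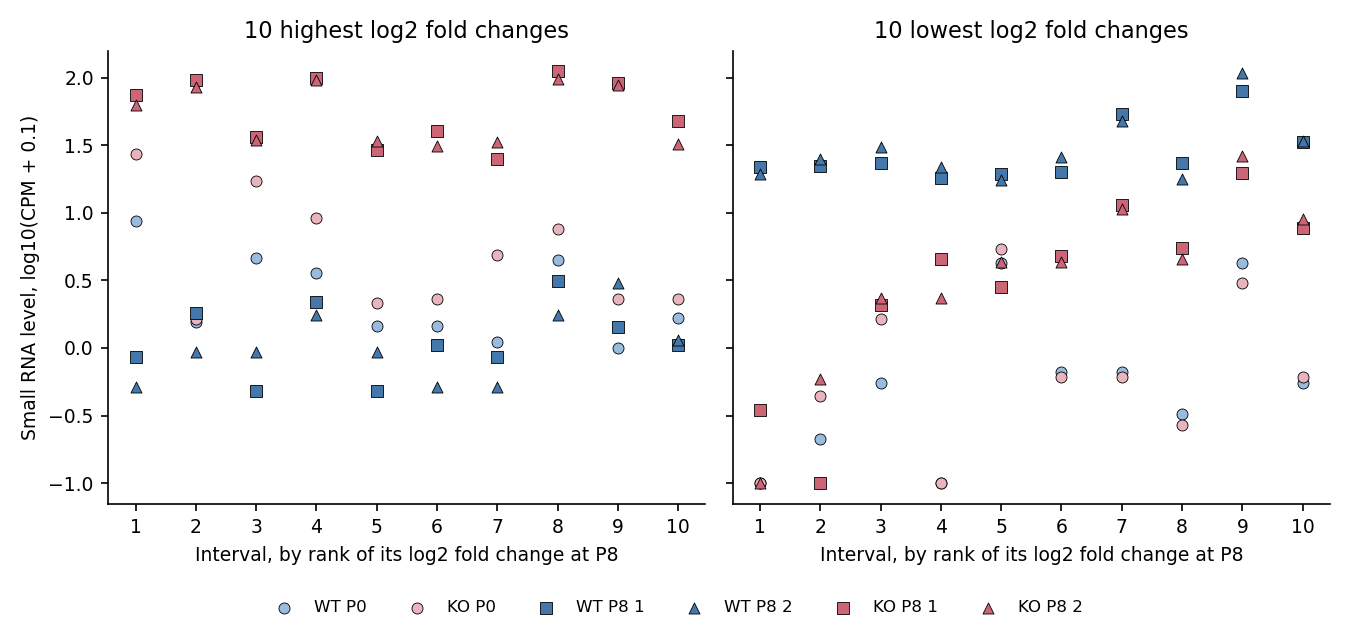
Levels in the 6 libraries, as log10 of CPM plus 0.1, of the 10 members with the highest (left) and the 10 with the lowest (right) log2 fold changes at P8, in order of rank. Both lists keep to members with a mean of at least 10 CPM at P8. Circles are the P0 libraries, squares and triangles P8 libraries 1 and 2, blue WT and red KO. The 2 KO P8 libraries stand together above the WT P8 libraries on the left and below them on the right.

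Some members on different chromosomes had similar reads in every library. Groups were formed, after the data were examined, among the 346 members with at least 200 reads, such that any 2 members of a group lay within 2-fold of each other in all 6 libraries once 5 reads were added to each count. There were 12 groups of at least 5 members, with 89 members in all. Other intervals were not grouped in this way, so there is no background for the number of groups. The P8 reads were part of the grouping, so like fold changes and calls within a group follow from how it was formed. In 3 of the groups every member was higher in KO at P8. One held 11 members on 9 chromosomes, 202 to 461 bp long, with median reads of 18 and 15 in WT P0 and KO P0, 65 and 55 in WT P8, then 223 and 220 in KO P8. Their P8 log2 fold changes lay between 2.04 and 2.54. Examples are chr1:87389199-87389406, with 13, 10, 66, 55, 221 and 205 reads in the same order of libraries, chr2:176849765-176849967, with 15, 17, 62, 48, 215 and 205, and chr9:90744998-90745199, with 16, 15, 68, 45, 223 and 219. The reads of these 3 intervals lay close together in every library. A second group held 7 members on 5 chromosomes with medians of 26 and 26 reads at P0, 85 and 73 in WT P8, then 299 and 297 in KO P8, and log2 fold changes of 2.14 to 2.56. Another held 5 members on 4 chromosomes with medians of 63 and 60 reads at P0, 22 and 19 in WT P8, then 490 and 452 in KO P8, and log2 fold changes of 4.51 to 5.13.

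Other groups had other patterns. The largest, 15 members on 13 chromosomes, had medians of 96 and 135 reads in WT P0 and KO P0 and at most 7 reads in any P8 library. With 5 reads added, counts that low differ little, so this group rests mainly on its P0 reads. These ran from 71 to 133 in WT and from 95 to 172 in KO. A group of 7 members on 7 chromosomes had medians of 103 and 91 reads in WT P8, then 44 and 38 in KO P8, and 6 of them were called lower. No group held 2 members within 1 kb of each other. Whether these members share sequence or reads was not analysed here, and how reads that match several places were assigned is not given in the sources used here, so they are not counted as independent loci. With all 89 left out, 227 of 721 tested members (31.5%) were higher and 137 lower at P8, against 254 and 150 of 792 with them. That count keeps the smaller groups and every member with fewer than 200 reads, which were not grouped. It therefore cannot tell how far like members make up the excess. Counting groups of any size among the 346 members with at least 200 reads, the 117 higher members fell in 56 groups. The 74 lower members fell in 36.

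Set beside other intervals with as many reads, the isolated short intervals were more often higher in KO at P8. When the other intervals of the non-overlapping set were weighted by total-read class as the members are distributed, 16.3% of them were higher and 16.0% lower, against 32.1% and 18.9% of members. Isolated intervals longer than 1000 bp came next, at 20.7% higher and 13.6% lower. Overlapped intervals were at 17.6% higher and 20.3% lower up to 1000 bp, and at 16.0% in each direction above it. The excess of higher members was present in every read class compared, from 27.1% against 10.7% in the lowest class (under 100 reads) to 40.4% against 33.7% in the class from 1000 to under 5000, with 56.0% against 27.1% from 500 to under 1000 reads. The class of 5000 reads or more held 4 members, of which 3 were higher, against 41.7% of other intervals. In the class from 1000 to under 5000 reads, isolated intervals above 1000 bp were more often higher (47.6%) than the members. Without the matching the difference from other intervals was 10.03 percentage points in place of 15.8 for higher calls and -1.25 in place of 2.92 for lower calls. Intervals are not replicates, and these shares are descriptions without a test.

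**Figure D4:**
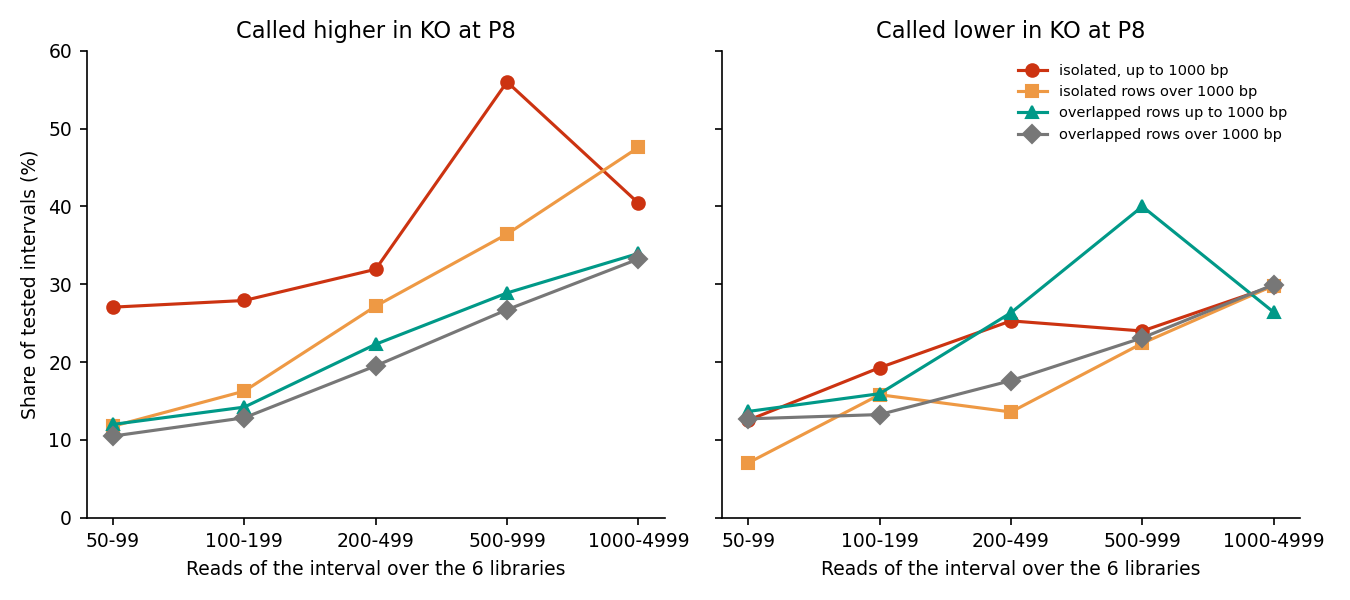
Share of tested intervals called higher (left) and lower (right) in KO at P8, in percent, by class of total reads over the 6 libraries, for the isolated short intervals (red circles), isolated intervals above 1000 bp (orange squares), and overlapped intervals up to (green triangles) and above (grey diamonds) 1000 bp. The red line is uppermost on the left in the first 4 classes and is crossed by the isolated longer intervals in the class of 1000 reads and more.

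Within the rule's length range, members over 200 and up to 300 bp long were higher in KO most often. At P8, 112 of 269 tested members of that length (41.6%) were higher and 50 (18.6%) lower. Shorter members were higher at 37 of 111 (33.3%) and lower at 26 (23.4%). Members over 300 and up to 500 bp were higher at 60 of 236 (25.4%) and lower at 46 (19.5%), and those over 500 bp were higher at 45 of 176 (25.6%) and lower at 28 (15.9%). The longest class was also the one with most of its reads at P0: a median of 44.5% of a member's reads came from the 4 P8 libraries there, against 69.1%, 66.1% and 64.3% in the classes of rising length below it. By chromosome, the share higher ran from 17.3% (9 of 52 tested) on chromosome 4 to 58.8% (20 of 34) on chromosome 13, with 54.2% (32 of 59) on chromosome 1. Chromosome 7, which held the most members (116), had 21.3% higher and 25.3% lower. The shares over all intervals of each chromosome or of each length class were not computed, so these shares cannot be called particular to the members. Both counts also keep the groups of members with similar reads.

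The share of members higher in KO also differed with the distance to the nearest other interval of the table, which the rule used only in requiring no overlap. Distances had a median of 2917.5 bp and were divided, after the data were examined, at 1 kb and 10 kb. At P8, 52 of 316 tested members within 1 kb of another interval (16.5%) were higher in KO and 74 (23.4%) lower. Between 1 and 10 kb, 118 of 330 (35.8%) were higher and 64 (19.4%) lower. Beyond 10 kb, 84 of 146 (57.5%) were higher and 12 (8.22%) lower. Among tested members, those farthest from other intervals were thus mostly higher in KO, and those closest were more often lower than higher. Only 146 of the 303 members beyond 10 kb were tested, against 330 of 542 between 1 and 10 kb and 316 of 441 within 1 kb. Whether a member was tested depended on its P8 reads, so these shares do not extend to all members of a class. The order held among members with under 200 reads, with 12.3%, 31.1% and 54.8% higher, and among those with 200 to under 1000 reads, with 23 of 92, 45 of 102 and 27 of 47. It also held among members of at least 1000 reads, with 4 of 20, 7 of 16 and 11 of 15 higher. Isolated intervals above 1000 bp followed the same order over a narrower range, at 17.0%, 26.2% and 34.8% higher. Beside these shares, the median fraction of a member's reads that came from P8 was 76.4%, 63.1% and 29.6% in the 3 classes, and its part in the difference was not tested.

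**Figure D5:**
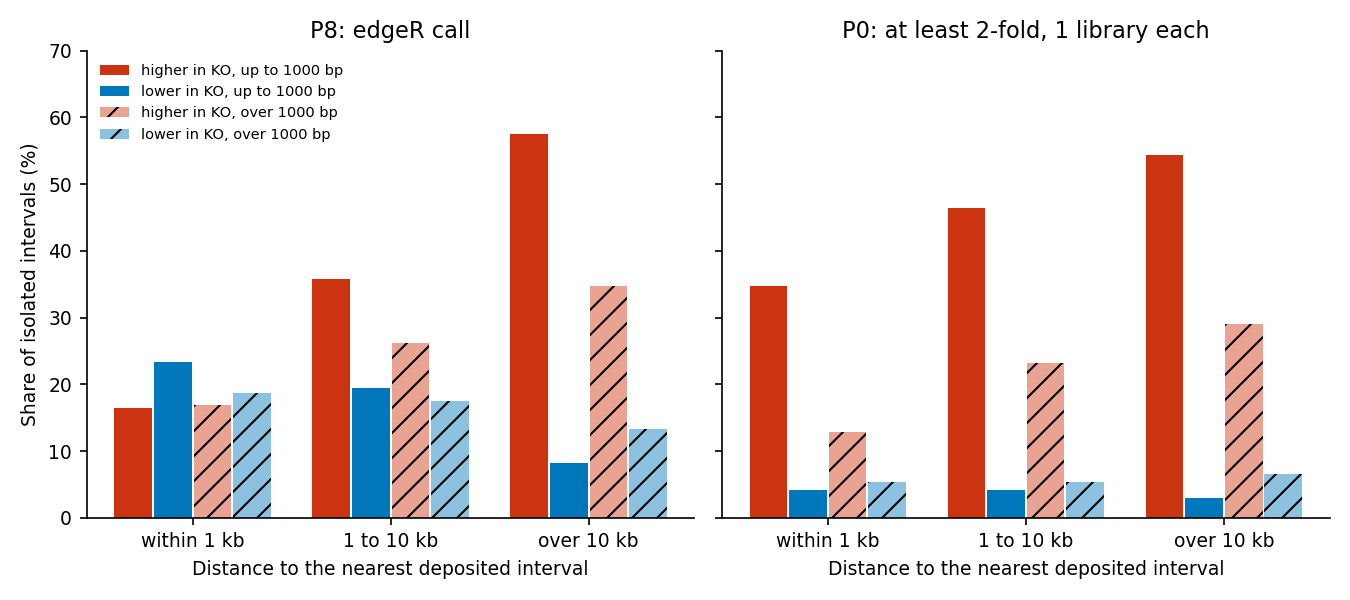
Share of isolated intervals higher (red) or lower (blue) in KO, in percent, by distance to the nearest deposited interval, at P8 by the edgeR test (left) and at P0 by a difference of at least 2-fold between single libraries (right). Full bars are the isolated short intervals and hatched bars isolated intervals above 1000 bp. Shares are of the intervals tested at P8 and of those with at least 100 reads at P0. The full red bars rise from 16.5% to 57.5% at P8 and from 34.7% to 54.4% at P0.

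Members that lay side by side were not called in opposite directions at P8. There were 75 pairs of members no more than 1 kb apart. At P8 both were called the same way in 20, opposite ways in 0, only one was called in 15 and neither in 40. Neighbouring pairs of other intervals were not counted, so there is no background share for these pairs. With age in WT both were called the same way in 55 pairs and opposite ways in 1, and in KO in 51 and 2. Only pairs called alike at P8 were joined into runs, so agreement within a run is set by how it was formed. They made 16 runs of 36 members, 5 higher and 11 lower in KO. Members within 1 kb of another interval were likewise more often lower than higher, as given above. Of 4 runs with 3 members, chr2:92374583-92376044 had 1 and 2 reads at P0, 287 and 289 in WT P8, then 2 and 4 in KO P8. Its level was 57.4 ± 3.90 CPM (SD, n = 2) in WT P8 and 0.740 ± 0.352 in KO P8, 77.6-fold lower, and it takes in the 2 members with the lowest fold changes named above. The run chr5:114983314-114984975 had 21 and 19 reads at P0, 89 and 119 in WT P8, then 11 and 5 in KO P8, 10.6-fold lower.

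The other 2 runs of 3 were higher in KO. At chr11:51559672-51561526 there were 46 and 161 reads at P0, 17 and 8 in WT P8, then 260 and 207 in KO P8, so the KO libraries were above WT at both ages and by 23.5-fold at P8 (2.45 ± 1.11 against 57.5 ± 8.99 CPM). At chr19:55986469-55987552 there were 464 and 228 reads at P0, 9 and 9 in WT P8, then 74 and 76 in KO P8. That run was lower in KO than in WT at P0 (38.9 against 52.2 CPM) and 10.3-fold higher in KO at P8. Whether a run is one source of RNA was not analysed here.

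At P0 many of the members had higher levels in the KO library. With 1 library of each genotype there is no replicate check and no test, and intervals given for ratios cover counting error only. Of 237 members with at least 100 reads over the 2 P0 libraries, 107 (45.1%) were at least 2-fold higher in KO with a counting interval that excluded 1, and 9 (3.80%) were lower. Over all 14108 intervals with as many reads, 9.87% were higher and 4.3% lower. The P0 counts of members take in groups with similar reads, such as the group of 15 described above. They were not repeated without those groups, whose members are not counted as independent loci. The median ratio of KO to WT was 1.83 over the members and 0.929 over all intervals, and 179 of the 237 members had a ratio above 1 (169, with a median of 1.69, when libraries were scaled by total counts). Matched on total reads, 10.3% of other intervals were at least 2-fold higher and 5.37% lower, and 25.9% and 6.94% of isolated intervals above 1000 bp. With distance from the nearest interval the share of members at least 2-fold higher was 34.7% within 1 kb, 46.4% from 1 to 10 kb and 54.4% beyond. That order did not hold in every read class: with under 200 reads the counts were 15 of 28, 22 of 41 and 15 of 21, with 200 to under 1000 reads 10 of 36, 19 of 46 and 18 of 33, and with at least 1000 reads 0 of 8, 4 of 10 and 4 of 14.

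The largest P0 ratios were at members that were almost empty at P8. At chr12:12384184-12384544 (361 bp) there were 3 reads at P0 in WT and 132 in KO, a ratio of 66.7 (22.3 to 328). At chr6:23481630-23482084 the reads were 10 and 126 (19.1-fold), and at chr9:7681891-7682082 they were 14 and 109 (11.8-fold). The next were chr9:102346692-102347300, with 15 and 115 reads, and chr1:134327287-134327801, with 18 and 131. None of these 5 had enough reads at P8 to be tested, and their mean levels over the KO P8 libraries were at most 1.60 CPM.

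In the other direction, chr12:67106104-67106292 (189 bp) had 101 reads in the WT library of P0 against 0 in KO, which put KO at least 22.2-fold lower, with a floor of 3 reads. At chr8:23585426-23585833 (408 bp) there were 170 reads and 1, a ratio of 112 (19.9 to 4455). Both were nearly absent from all P8 libraries of either genotype, so nearly all the reads of each came from a single library. At chr14:51671771-51672716 the reads were 182 and 27 (4.45-fold lower), and at chr7:27969805-27970458 they were 89 and 22 (2.67-fold lower). The fifth, chr1:180559159-180559414, had 82 and 22 reads at P0, 85 and 72 in WT P8, then 17 and 22 in KO P8. It was lower in KO at both ages, by 2.46-fold at P0 and with a P8 log2 fold change of -1.66 ± 0.24 (adjusted p = 0.000143).

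Differences at P0 and P8 come from separate libraries, and 109 members could be read at both ages. Of these, 54 were called higher in KO at P8, and 28 of these were at least 2-fold higher and 0 lower at P0. Of 42 not called at P8, 8 were higher and 3 lower at P0. Of 13 called lower at P8, 0 were higher and 1 lower at P0. The median P0 ratios of KO to WT in these groups were 2.02, 1.12 and 0.685. Across the 109 members the 2 log2 differences were correlated (Pearson 0.603, Spearman 0.616), as a description across intervals that share their libraries. Among other intervals called higher at P8, 642 of 3557 were at least 2-fold higher and 80 lower at P0, and among the 2429 called lower 37 were higher and 84 lower. Opposite directions were thus rare among other intervals too.

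With age, isolated short intervals changed in both directions in both genotypes. In WT, 489 members (38.0%; 29.4% of all intervals) were higher and 526 (40.9%; 38.5% of all) lower at P8 than at P0. In KO, 490 (38.1%; 26.4% of all) were higher and 458 (35.6%; 31.3% of all) lower. The share that rose was farther above the background than the share that fell in both genotypes, by a 4-group edgeR fit that takes the spread of the single P0 libraries from the P8 pairs. Matched on total reads, 27.7% of other intervals rose in WT and 22.6% in KO. Overlapped intervals up to 1000 bp, matched in the same way, rose more often than the members, at 43.6% in WT and 40.3% in KO. Frequent rises with age were therefore not particular to isolated short intervals. These splits depend on the scaling. With total counts in place of TMM, the median log2 change of all intervals moved from -0.47 to -1.22 in WT and from -0.27 to -0.95 in KO. The members then split into 388 higher and 609 lower in WT and 386 higher and 518 lower in KO. DESeq2 called fewer members, 298 higher and 253 lower for WT, 263 higher and 224 lower for KO. In WT the lower edgeR calls numbered 269 without WT P8 replicate 1 and 288 without WT P8 replicate 2. Both P0 libraries were above all 4 P8 libraries at 449 members (34.9%; 36.7% of all intervals) and below all 4 at 495 (38.5%; 35% of all).

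The rises and falls with age named here and for KO below are the strongest among members with a mean of at least 10 CPM over the libraries compared. The strongest rises in WT among them began from no reads. At chr10:75877454-75877743 (290 bp) there were 0 and 2 reads in WT P0 and KO P0, 389 and 349 in WT P8, then 116 and 83 in KO P8, at least 217-fold higher at P8 in WT. The next, chr2:92375143-92375390 and chr1:131861547-131861718, described above among the members lowest in KO at P8, were at least 61.0-fold and 58.6-fold higher. All 3 were also lower in KO than in WT at P8, so these members rose in WT and had lower levels in KO. The strongest falls were at chr13:9884449-9884625 (177 bp), with 388 and 280 reads at P0 and 2 and 1 in WT P8 (146-fold lower), chr7:28337055-28337463, with 1328 and 444 at P0 and 5 and 7 in WT P8 (125-fold), and chr9:62657205-62657485, with 324 and 258 at P0 and 1 and 2 in WT P8 (122-fold). Their KO P8 libraries had at most 9 reads, so these members were nearly empty at P8 in both genotypes.

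In KO the strongest rise was at chr10:128645497-128645929, with 20 and 2 reads in WT P0 and KO P0, and 299 and 288 in WT P8. Its KO P8 level, 41.9 ± 9.93 CPM (SD, n = 2), was 123-fold its KO P0 level (interval 33.7 to 1018). Next came chr8:70836973-70837278 (79.4-fold, interval 26.9 to 387) and chr7:16297873-16298087 (76.3-fold, interval 25.9 to 372), each with 3 reads in KO P0. At chr8:70836973-70837278 there were 193 and 219 reads in WT P8, then 177 and 153 in KO P8. The genotypes did not differ there at P8 by the test (log2 fold change 0.01 ± 0.14, adjusted p = 0.946). The strongest falls in KO were at chr13:9884449-9884625 again (388-fold, interval 69.0 to 15369), at chr1:45128939-45129490, with 180 and 176 reads at P0 and 1 or 2 in each P8 library (81.2-fold), and at chr13:6933826-6934665, with 134 and 387 reads at P0 and at most 4 in any P8 library (76.6-fold). The last of these also had more reads in KO P0 than in WT P0.

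A difference between the ages in the effect of genotype was called at few members. The interaction was positive (KO relatively higher at P8) at 77 members (5.99%; 5.16% of all intervals) and negative at 16 (1.24%; 2.55% of all). Matched on total reads, 2.93% of other intervals were positive and 1.46% negative, so the positive share of members was near the background over all intervals and above that of intervals with as many reads. The 3 highest with that mean or more were chr2:17756439-17756669 (6.05 ± 0.68 on the log2 scale, adjusted p = 0.00248), chr15:29984069-29984850 (5.12 ± 0.42, adjusted p = 0.000688) and chr1:76753019-76753221 (5.08 ± 0.74, adjusted p = 0.00706), whose reads are given above. The 3 lowest among members with a mean of at least 10 CPM over all 6 libraries had few reads at P0 and lower levels in KO than in WT at P8. Under that mean, chr17:66514999-66515579 and chr13:35068504-35068692, whose reads are given above, had interactions of -5.39 and -2.75. At chr1:119472993-119473550 there were 5 and 18 reads at P0, 248 and 222 in WT P8, then 59 and 46 in KO P8, so KO had more reads at P0 and fewer at P8 (-4.25 ± 0.55, adjusted p = 0.00443). At chr9:106570451-106570834 there were 6 and 12 reads at P0, 146 and 106 in WT P8, then 36 and 39 in KO P8 (-3.00 ± 0.66), and at chr3:70479590-70480069 there were 8 and 10, 704 and 695, and 183 and 161 (-2.62 ± 0.50). These calls rest on 1 P0 library of each genotype and on both WT P8 libraries. Without WT P8 replicate 1, 0 members were called by edgeR, with 224 at an unadjusted p under 0.05, and without WT P8 replicate 2, 0 were called, with 239. Without KO P8 replicate 1 the calls were 139 positive and 46 negative, and without KO P8 replicate 2 they were 148 and 55.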

How the data were processed

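The authors deposited raw read counts per genomic interval for the 6 libraries, and for the 4 P8 libraries log2 CPM values that equal edgeR's TMM-scaled log2 CPM. Intervals are named by coordinates on GRCm39, the build in the submitters' processing notes, which list as tools bedtools, Bowtie 1.1.1, TopHat2 2.1.1, FastQC 0.10.1 and cutadapt 1.13. Neither where the intervals came from nor how reads with several matches were treated is stated in the labels. Starts are printed counted from 1.

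The counts had 1272548 rows, of which 62 were exact duplicates and were dropped. Tests used a non-overlapping set in which the interval with the highest mean CPM was taken first. KO and WT at P8 were compared on the 4 P8 libraries, and age and interaction in a 4-group fit to all 6, with edgeR 4.0.16 in R 4.3.3 (filterByExpr, TMM, glmQLFTest, two-sided, Benjamini-Hochberg threshold 0.05 over all intervals tested). Scripts were tested on simulated counts. Standard errors were taken as the absolute log2 change over the root of F. P0 ratios and folds of reads carry exact conditional binomial 95% intervals, and a group with 0 reads is put at a floor of 3 reads over the group. These cover counting error only, since reads carry no molecular identifiers and are not independent. The common biological coefficient of variation was 10.9% at P8.

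Named members are the 5 with most reads, the 10 highest and 10 lowest P8 log2 fold changes (adjusted p under 0.05, mean of at least 10 CPM over the P8 libraries, no overlap between the KO and WT libraries), the 5 highest and 5 lowest P0 ratios (at least 100 reads), the 3 highest and 3 lowest for each age contrast and for the interaction (adjusted p under 0.05, mean of at least 10 CPM over the libraries of that contrast, all 6 for the interaction), and those at the edges of the rule. The members and lists were chosen with earlier results of these data known. Distance classes, runs, groups of members with similar reads and the replicate-number comparison were added after the data were examined. Alternatives tried were total counts, RLE factors, no read filter, every deposited row, DESeq2 1.42.0, a replicate block and leaving out each P8 library. The genome at hand was of another build, so sequence, repeat class and gene annotation of the members were not analysed here.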

Additional observations from a re-analysis of the deposited data

Results flagged for a closer look

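At 16 of the members named, the difference between KO and WT at P8 differed from that at P0 by the interaction test (edgeR, adjusted p under 0.05). The interaction is given on the log2 scale, positive where KO was relatively higher at P8. It was 6.05 at chr2:17756439-17756669, 5.12 at chr15:29984069-29984850, 5.08 at chr1:76753019-76753221, 4.93 at chr5:57849706-57849918 and 4.81 at chr1:23344437-23344580. It was 4.67 at chr13:116026619-116026852, 4.31 at chr17:69848104-69848306, 4.13 at chr7:51069789-51069996 and 3.92 at chr12:67882204-67883157, all among the 10 members named above as highest at P8. Of the members with most reads, chr4:100912069-100912365 had 2.07 and chr18:42007701-42007909 had 0.79, and both were higher in KO at P0 too. It was negative at chr17:66514999-66515579 (-5.39), chr1:119472993-119473550 (-4.25), chr9:106570451-106570834 (-3.00), chr13:35068504-35068692 (-2.75) and chr3:70479590-70480069 (-2.62), which had lower KO levels at P8. Each P0 group is 1 library, and no member was called without either WT P8 library (smallest adjusted p 0.273 and 0.272).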

How the results depend on the processing

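At P8, the 254 members higher and 150 lower in KO became 94 and 71 with a mean of at least 10 CPM (241 members, added after the data were examined). Lower calls were 87 with no read filter and 83 with DESeq2. Leaving out each library gave 227 to 239 higher and 110 to 144 lower. With age, DESeq2 called 298 (WT) and 263 (KO) higher, 253 (WT) and 224 (KO) lower. Leaving out each library gave for WT 363 to 510 higher and 269 to 539 lower, for KO 365 to 496 higher and 338 to 456 lower. Interaction calls (77 positive, 16 negative) were 28 and 2 with no read filter and 32 and 7 with DESeq2, where 1053 adjusted p were missing. Negative calls were 27 with RLE factors and 35 over every deposited row. Leaving out each library gave 0 to 148 positive and 0 to 55 negative. At P0, a minimum of 50 reads gave 227 members at least 2-fold higher and 37 lower of 562, scaling to the members' own median, which itself balances the directions, gave 30 and 50, and total counts gave 14 lower. Without matching on reads, members differed from other intervals by 10.03 points (higher) and -1.25 points (lower). Replicate numbers are shared between genotypes at P8, with a correlation of deviations of 0.202 over members. With 2 pairs they share only a number. The replicate block gave 267 higher and 174 lower at P8, and 154 and 57 for the interaction. For the 38 values named under the P8, age and interaction rules, 0 reversed and 2 calls were lost with no read filter. Without either WT P8 library all interaction calls were lost, and no other call among the 38. The cause of these shifts was not tested. Depth limits the weakest members: 494 could not be tested at P8.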
